A study of Mus musculus with 20 samples.

Results

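A set of 9 genes of the complement system was followed by symbol through the authors' comparisons of mouse aorta: C3, C4b, Cfd, Cfb, C1qa, C1qb, C1qc, C2 and Serping1. They are 9 genes beside 14374, 14661 and 14477 genes tested in the 3 comparisons. The series measured RNA in 20 libraries of aortic tissue from female mice, with 5 libraries in each of 4 groups and tissue of 2 mice pooled in each library. The groups were WT young and WT aged, labelled wild-type, and KO young and KO aged, labelled Knockdown-KO for Slc24a4 (Nckx4-/-), the gene of a calcium exchanger of the plasma membrane. Ages were 12 to 15 weeks in the young and 72 to 78 weeks in the aged groups, and no strain is named in the sources used here. The authors made 3 comparisons: ageing in WT, ageing in KO, and KO young against WT aged. The last differs in genotype and in age at once, so effects of genotype and age cannot be told apart in it.

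Complement is a cascade of plasma and tissue proteins that tags particles and cells for uptake and lysis. In the classical pathway C1q recognises its target and its attached proteases cleave C4 and C2 to form a convertase that cleaves C3. In the alternative pathway factor D, a serine protease made in quantity by adipocytes and encoded by Cfd, cleaves factor B, encoded by Cfb, to form a second C3 convertase. Serping1 encodes the C1 inhibitor, which restrains the first proteases. The liver makes most plasma complement, while fibroblasts, macrophages, endothelium and fat make some of these proteins locally.

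Values were the authors' own tests: a gene counts as called where its adjusted p in the authors' deposited table is under 0.05, and each table lists called genes only. Values of single libraries were not analysed here, so library depth is unknown and each value carries the authors' standard error (SE) in place of a replicate spread. With 5 pools a group, the authors' p-values measure the spread between pools rather than between single mice. Fold changes are on the log2 scale and, judged from the deposited p-values and SEs, were shrunken towards 0. In the authors' deposited table, Slc24a4 fell with age in WT aorta by 2.00 (SE 0.46, adjusted p = 1.40e-05). It was called in no comparison with a KO group. Of these, KO young against WT aged alone includes WT libraries, and the implied mean of Slc24a4 in WT aged aorta was 130 in WT ageing. Lower Slc24a4 in KO young was not called there, or the gene was left untested. The KO label was therefore not borne out on the RNA of its target, and directions from those libraries rest on that label. The smooth muscle genes Smtn and Lmod1, markers of the labelled tissue, had mean normalized counts of 43164 (KO young against WT aged) and 24197 (KO ageing) in the authors' deposited tables. Adipocyte markers were abundant there too. Plin4 stood at 24704 (KO young against WT aged) and 25525 (KO ageing), and Ucp1 at 3818 (KO ageing). The libraries were therefore not shown to hold RNA of the aortic wall alone. In bulk tissue, a change in the number of cells of a type cannot be told apart from a change in RNA per cell.

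With age, WT aorta gained RNA of 4 of the 9 complement genes, C4b, C3, Cfd and Cfb, and lost RNA of none that was called. Called members made up 44.4% of the 9, against 12.0% of all tested genes called in either direction and 5.26% called higher and 6.76% called lower. Their median log2 fold change was 0.89, beside −0.21 over all 1728 called genes and 0.46 over the 756 called higher. The genes were chosen with these results known, so the shares describe and do not test the group. C3 is the substrate of both convertases, C4b and Cfb encode parts of the classical and the alternative one, and Cfd encodes the protease that cleaves factor B. C2, which encodes the enzyme part of the classical convertase, and the C1q chain genes were not called.

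The sequences of C4b and its copy C4a come first, since C4b carried the clearest change and reads from the copy could be counted with it. C4a, known as sex-limited protein, lies on the same chromosome 17. Aligned over 5378 columns, the longest protein-coding transcripts of both genes in GENCODE M21 were 95.9% identical, with a longest run of 433 identical bases. Of the 5330 words of 50 bases in the C4b transcript, 35.2% also occur in C4a, so reads from those stretches cannot be assigned. A stretch of 60 coding bases with many differences, bases 2761 to 2820 of the C4b transcript, is shown with capitals at the 13 differing positions.
C4b: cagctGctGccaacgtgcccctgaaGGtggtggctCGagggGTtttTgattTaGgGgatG
C4a: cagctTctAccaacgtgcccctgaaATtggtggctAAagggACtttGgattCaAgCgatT
C4a was called in none of the comparisons, and the authors' handling of reads that match both copies is not stated. The C4b value is therefore uncertain as to the copy.

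C4b, the source of the C4 fragment that binds covalently to targets, had the strongest evidence of the 9. The mean normalized counts implied by the authors' deposited table were 1979 in WT young and 4484 in WT aged aorta. This 2.27-fold rise stands as 1.18 on the log2 scale in the authors' deposited table (SE 0.10, adjusted p = 3.76e-28). By adjusted p it ranked 11 among the 1728 called genes, and by size 75 among the 756 increases. Of the 315 other called genes whose mean lay within 1.5 times of it, 80 had a larger SE.

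C3, the protein on which all pathways converge, had implied means of 9946 in WT young and 18432 in WT aged aorta. The authors' deposited table lists this 1.85-fold rise as 0.89 on the log2 scale (SE 0.27, adjusted p = 0.00218). That SE was high among called genes of its level. The 94 others with a mean within 1.5 times had a median SE of 0.08, and 2 of them had a larger one. None of those 94 had a larger absolute log2 fold change than C3, their largest being 0.74. Only called genes could be compared, and a gene with a wide SE is called only where its change is large. The place of C3 in size and SE thus depends on the threshold, and genes of its level that were not called are not covered.

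Cfd had implied means of 4476 in WT young and 8294 in WT aged aorta, the same fold as C3. The authors' deposited table gave 0.89 (SE 0.35, adjusted p = 0.0107). Among 200 other called genes of like mean, 1 had a larger SE, and their median SE was 0.08. Genes not called are left out here as well. Cfd is also an adipocyte gene, and of the 20 adipocyte markers examined it and Cidec, a lipid droplet protein gene, were the ones called in WT ageing. Cidec was higher by 0.45 (SE 0.17, adjusted p = 0.0105) in the authors' deposited table. These 2 are 10% of the list, beside 12.0% of all tested genes, and Adipoq, Plin1, Fabp4 and Lep, the defining markers, were not called. That share counts Cfd itself, and apart from Cfd only Cidec was called. Outside the list, and named after their values were seen, the adipogenin gene Adig at 1.00 (SE 0.17) and the lipid synthesis gene Agpat2 at 0.62 (SE 0.16) were higher in WT ageing in the authors' deposited table. Picked from known values, Adig and Agpat2 add nothing to the count of the list. The part of fat tissue in the Cfd value was not tested.

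Cfb, the catalytic part of the alternative convertase, was the least abundant called member, with implied means of 88.3 in WT young and 121 in WT aged aorta. The rise was 0.46 on the log2 scale in the authors' deposited table (SE 0.36, adjusted p = 0.0460), close to the threshold. Shrinkage weighed on it most: its fold change over its SE was 0.465 of the z implied by its p-value, against 0.979 for C4b, 0.847 for C3 and 0.765 for Cfd. The implied z times the deposited SE, a rough unshrunken value, came to 0.99 for Cfb, 1.05 for C3, 1.16 for Cfd and 1.21 for C4b. On that scale the 4 genes lay closer together than their deposited fold changes. The implied group means follow from the shrunken fold changes, so they may understate the change, most of all for Cfb.

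Per kilobase of exon the order of levels differed from that of the counts. Cfd stood highest, with 4854 in WT young and 8996 in WT aged aorta (mean normalized count per kilobase). C3 followed with 1934 and 3584, then C4b with 348 and 787, and Cfb with 31.2 and 43.0. Each step in that order spanned more than the ageing change of any member. The Cfb level depends on the counting of overlapping genes, described further on.

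**Figure D1:**
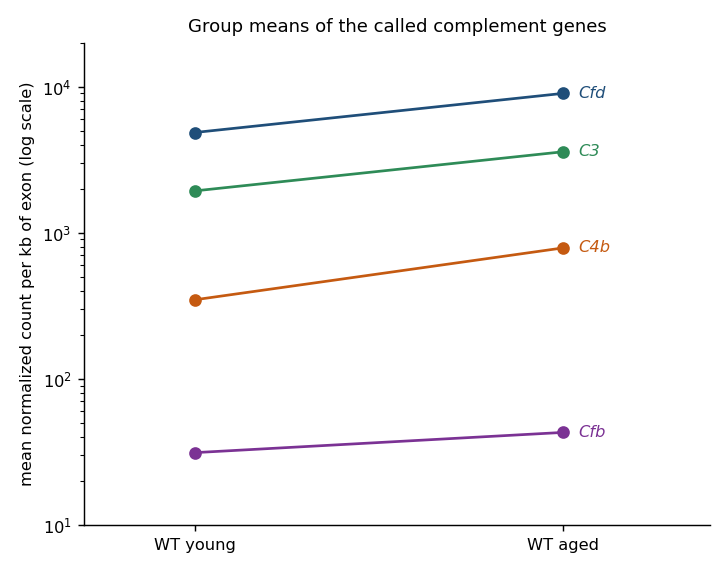
Mean normalized count per kilobase of exon (log scale) of the 4 called complement genes in WT young and WT aged aorta. Values are implied by the deposited mean and shrunken fold change. All 4 lines rise, Cfd from 4854 to 8996 and Cfb from 31.2 to 43.0; no error per group was available.

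**Figure D2:**
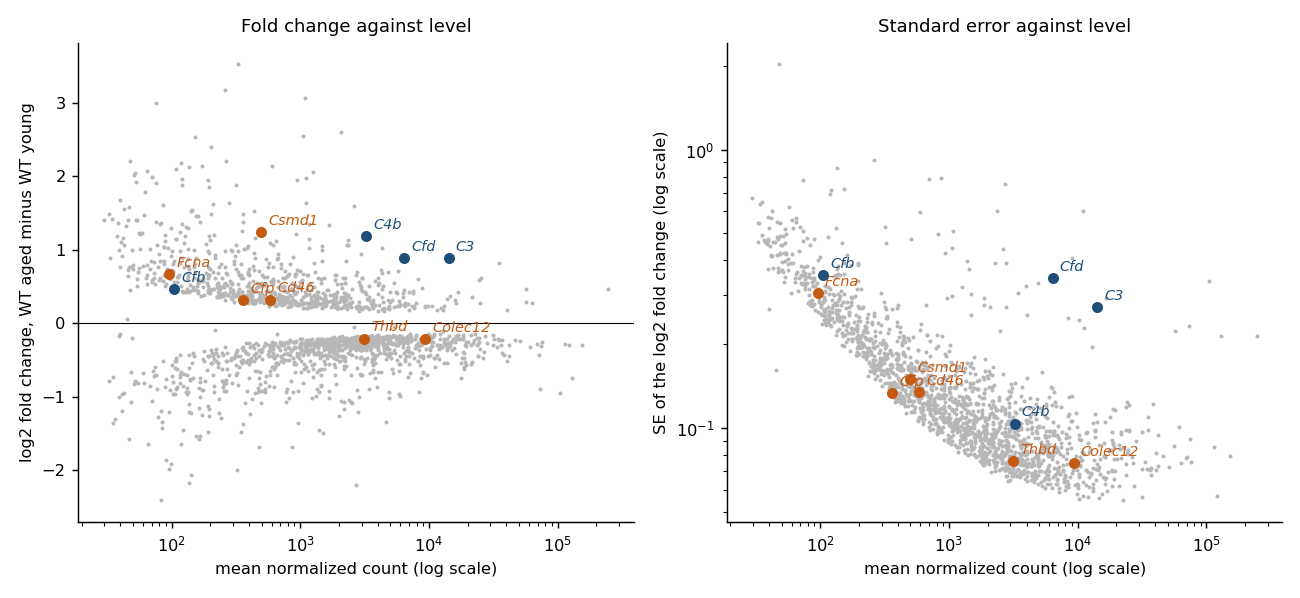
Each grey point is 1 of the 1728 genes called in WT ageing, with mean normalized count on a log x axis. The left panel plots the log2 fold change and the right panel its SE (log scale). The 4 complement genes (blue) lie above 0 on the left, and C3 and Cfd stand above nearly all called genes of their level on the right. The 6 other complement genes are orange.

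The members not called in WT ageing were the 3 C1q chain genes, C2 and Serping1. No value of theirs was used here, and a gene outside the tables may have been tested and missed the threshold or been left untested. C1qa, C1qb and C1qc lie together on chromosome 4 and are expressed mainly by macrophages. Of 28 macrophage markers 1 was called in WT ageing, the adaptor gene Tyrobp, at 0.43 (SE 0.37, adjusted p = 0.0448) in the authors' deposited table. That is 3.57% of the list, below the 12.0% of all tested genes, and the macrophage markers Adgre1, Cd68 and Csf1r were not called.

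C4b, Cfb and C2 are near neighbours on chromosome 17, and C3 lies elsewhere on the same chromosome, while Serping1 is on chromosome 2 and Cfd on chromosome 10. Of the 8 protein-coding genes that RefSeq (GRCm38.p6) places from C4b to C2, only C4b and Cfb were called in WT ageing. With 15 more genes on each side, 5 of 38 were called, where 12.0% of all tested genes were. The other 3 were Tnxb at −0.29 and Hspa1b and Hspa1a at −0.05 each in the authors' deposited table. The fold changes are shrunken, so −0.05 may understate the change of Hspa1b and Hspa1a. An annotated read-through gene, Gm20547, spans C2 and Cfb on their strand. It overlaps 79.5% of the exon bases of Cfb and 42.8% of those of C2 in GENCODE M21, and 4.16% of C2 is overlapped on the other strand by Zbtb12. The authors' annotation is not stated, so the counts of Cfb and C2 are uncertain. C3, Cfd, the C1q chains and Serping1 shared no 50-base word with another annotated gene.

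RefSeq windows from 250 bases before to 50 after the annotated start were matched for 4 of the 9 members, namely C3, Cfd, C1qb and C1qc. Those of C3 and Cfd are shown because they were the called members that had a window. Each has the 250 bases before the start, in GRCm38.p6, with capitals at matches of the motifs searched. C3 is at chr17:57228137-57228386 on the minus strand and Cfd at chr10:79890603-79890852 on the plus strand.
C3: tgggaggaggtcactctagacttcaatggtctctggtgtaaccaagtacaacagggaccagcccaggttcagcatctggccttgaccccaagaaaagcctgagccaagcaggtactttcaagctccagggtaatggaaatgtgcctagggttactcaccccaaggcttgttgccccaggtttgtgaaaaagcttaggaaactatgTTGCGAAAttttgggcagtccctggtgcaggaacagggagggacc
Cfd: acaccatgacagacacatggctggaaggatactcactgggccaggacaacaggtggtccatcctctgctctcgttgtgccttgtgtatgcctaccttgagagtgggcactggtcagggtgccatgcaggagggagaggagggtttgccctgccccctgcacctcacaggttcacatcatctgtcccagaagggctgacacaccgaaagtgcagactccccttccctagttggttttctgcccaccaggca
The C3 window held 1 match of the C/EBP-like motif TTGCNNAA, starting 45 bases before the annotated start. That motif, on either strand, occurs in 10.8% of the 32851 promoter windows. C3 also held the TATA box TATAAA just after the annotated start, a motif found in 13.6% of windows. Neither window held the NF-kB-like motif, TTCNNNGAA (interferon gamma-activated site), the interferon-stimulated element, TGANTCA (AP-1), ACANNNTGT (glucocorticoid receptor-like) or CACGTG (E-box). Cfd held none of the 8 motifs. The 2 matches in C3 do not overlap.

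Over the rest of the pathway the share of called genes in WT ageing was near that of all genes. Of 54 other complement genes 6 were called, 4 higher and 2 lower, which is 11.1% of the list against 12.0% of all tested genes. Their median log2 fold change was 0.315. Csmd1, a membrane protein with complement control repeats, led with 1.24 (SE 0.15, adjusted p = 3.93e-16) in the authors' deposited table. Fcna, a ficolin of the lectin pathway, was higher by 0.67 (SE 0.31) in the authors' deposited table. Both Cfp and Cd46 rose by less. Properdin, a stabiliser of the alternative convertase encoded by Cfp, gave 0.31 (SE 0.13), and the cofactor gene Cd46 gave 0.32 (SE 0.13) in the authors' deposited table. The scavenger collectin gene Colec12 (−0.22, SE 0.07) and the thrombomodulin gene Thbd (−0.21, SE 0.08) were the lower ones in the authors' deposited table. None of the terminal pathway genes and none of the 12 receptor genes was called in WT ageing.

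Some genes of the wider acute phase were called in WT ageing too. Of 16 acute phase and innate secreted genes 4 were called, all higher. That is 25% of the list, beside 12.0% of all tested genes called in either direction and 5.26% called higher. The authors' deposited table gave 1.12 (SE 0.17) for the protease inhibitor gene Serpina3n, 0.66 (SE 0.11) for the ceruloplasmin gene Cp, 0.84 (SE 0.53) for Orm1 and 0.53 (SE 0.18) for Lbp, which encodes the lipopolysaccharide binding protein. Cytokines known to induce complement genes, with their receptors and transcription factors, gave 7 called of 26, 4 higher and 3 lower. That is 26.9% of the list, beside the same 12.0%. The interleukin 6 receptor gene Il6ra was higher by 1.06 (SE 0.16) and the oncostatin M receptor gene Osmr by 0.56 (SE 0.11), while their shared signalling subunit gene Il6st was at −0.34 (SE 0.07) in the authors' deposited table. The cytokine genes Il6, Il1b, Tnf and Ifng were not called in any comparison. The same list gave 7 called of 26 in KO ageing, 4 higher and 3 lower. In KO young against WT aged it gave 4 of 26, 1 higher and 3 lower in KO young. These counts are 26.9% and 15.4% of the list, beside 14.4% and 7.78% of all tested genes. In KO ageing the C/EBP genes Cebpd and Cebpb were at 1.25 (SE 0.12) and 0.73 (SE 0.15) and the NF-kB inhibitor gene Nfkbia at 1.02 (SE 0.09) in the authors' deposited table. No complement member was called in KO ageing. In WT ageing neither C/EBP gene was called, while Nfkbia was at 0.39 (SE 0.15) in the authors' deposited table. Any link between the genes of this list and the complement values was not tested.

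The called fibroblast markers went the other way. Of 16 such markers 8 were called in WT ageing, which is 50% of the list beside 12.0% of all tested genes. All 8 were lower, led by Mfap5 at −1.34 (SE 0.11) in the authors' deposited table. Pdgfra, Dcn, Lum and Col3a1 were among the fibroblast markers not called in WT ageing. Smooth muscle and endothelial markers split, each with 1 higher and 1 lower called gene, or 20% and 18.2% of these lists. Whether the makeup of the tissue had a part in the complement values was not tested.

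In KO young against WT aged aorta, 0 of the 9 members were called, where 7.78% of tested genes were, 4.08% higher and 3.70% lower in KO young. In KO ageing, 0 of the 9 were called, where 14.4% of tested genes were, 7.71% higher and 6.68% lower. Both counts rest on the authors' tests, whose processing notes name DESeq2, and unadjusted p-values of genes that were not called were not used here. These 2 comparisons share the KO young libraries, and KO young against WT aged shares the WT aged libraries with WT ageing. Since a called effect in one genotype and an uncalled one in the other are not shown to differ, and 0 of the 438 genes called in both ageing comparisons were members, the difference of ageing effects could not be tested for the 9 genes.

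Stricter rules were read against the share of all genes that passed them. In WT ageing 2 of the 9 members passed at an adjusted p under 0.01, where 7.30% of tested genes did, and 1 passed Bonferroni correction, where 3.02% did. Where the log2 fold change had to reach 0.5 in size, 3 members and 4.44% of tested genes passed, and where it had to reach 1 it was 1 member and 1.25%. The member past all of them was C4b. In KO young against WT aged, the 0 members stood beside 4.77%, 2.13%, 2.80% and 0.716% of tested genes under the same 4 rules in that order. In KO ageing they stood beside 8.43%, 3.17%, 3.67% and 0.684%.

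**Figure D3:**
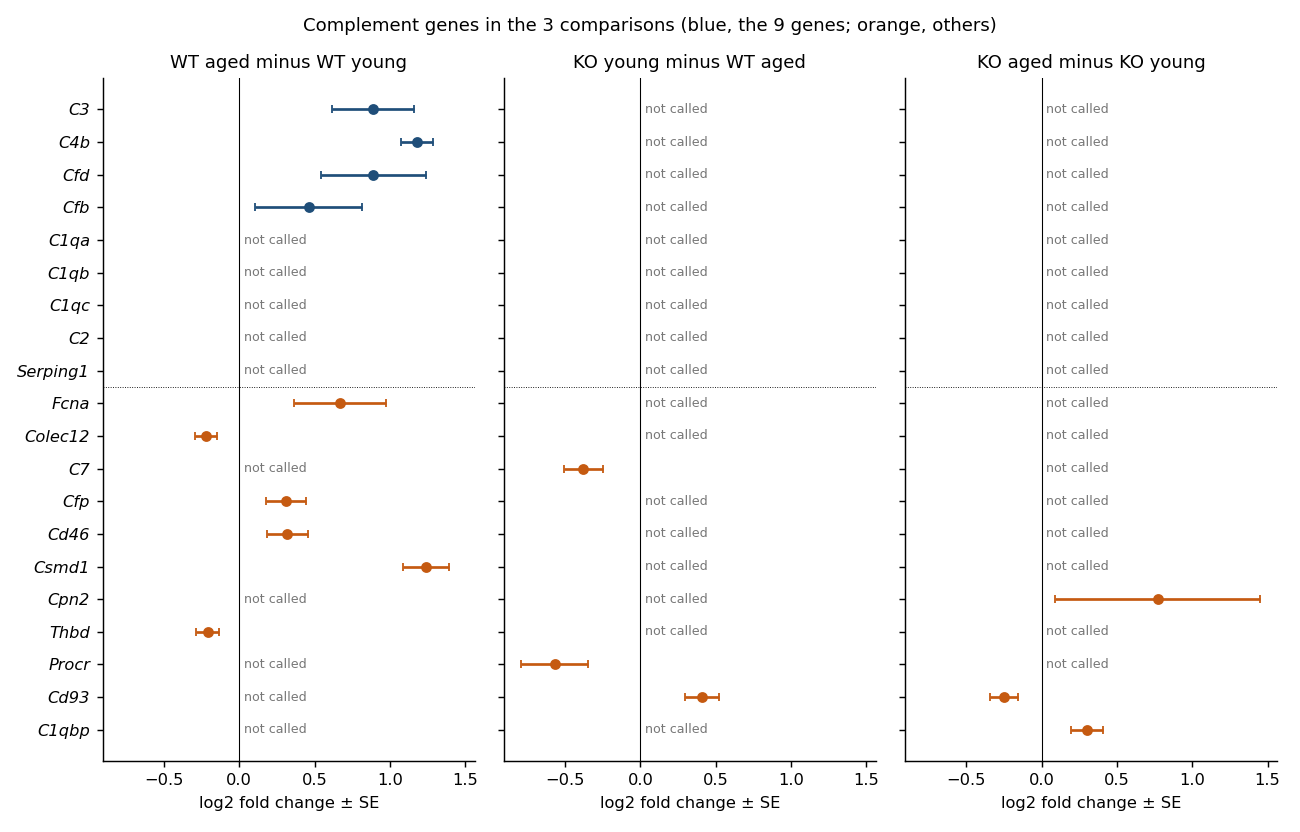
Log2 fold change with its SE (bars) of the 9 complement genes (blue) and of other complement genes called at least once (orange), in WT ageing, KO young against WT aged, and KO ageing. The 4 called members, from 0.46 to 1.18, all stand in the first panel; genes not called are marked so.

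Other complement genes were called in the comparisons with KO libraries, 3 of 54 in KO young against WT aged and 3 of 54 in KO ageing. Each count is 5.56% of the list, beside 7.78% and 14.4% of all tested genes in these comparisons. In KO young relative to WT aged aorta, the terminal component gene C7 was at −0.38 (SE 0.13) and Procr, the endothelial protein C receptor gene, at −0.57 (SE 0.22), in the authors' deposited table, whose positive side is WT aged and was reversed here. Cd93, a membrane protein first described as a C1q receptor, was at 0.41 (SE 0.11) there, in the same authors' deposited table. In KO ageing the authors' deposited table gave −0.25 (SE 0.09) for Cd93, 0.30 (SE 0.10) for C1qbp, a mitochondrial protein that binds the C1q globular head, and 0.77 (SE 0.68) for Cpn2. Cpn2, a carboxypeptidase N subunit, had a mean normalized count of 44.8 in the authors' deposited table, the lowest of the complement genes named here. The acute phase genes that rose in WT ageing were called in neither of these comparisons, and a difference from WT ageing was not tested. Of the 16 genes on that list, 0 were called in KO young against WT aged. In KO ageing 1 was called, Itih4 at −0.26 (SE 0.07) in the authors' deposited table. That is 6.25% of the list, beside 14.4% of all tested genes.

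The marker lists were read in the comparisons with KO libraries as well. In KO ageing, 3 of 20 adipocyte markers were called, all higher, which is 15% of the list beside 14.4% of all tested genes. The authors' deposited table gave Ucp1, the uncoupling protein gene of brown fat, at 1.62 (SE 0.45), the triglyceride synthesis gene Dgat2 at 0.95 (SE 0.35) and the lipid droplet gene Plin4 at 0.20 (SE 0.07), while Cfd was not called. In KO young relative to WT aged aorta 3 of 20 were called, also 15%, beside 7.78% of all tested genes. They were Cidec at −0.56 (SE 0.16), Plin4 at −0.17 (SE 0.07) and the adrenergic receptor gene Adrb3 at 0.37 (SE 0.18) in the authors' deposited table. Macrophage markers gave 2 of 28 in KO ageing, or 7.14%, with the scavenger receptor gene Cd163 at 0.43 (SE 0.28) and the transcription factor gene Spi1 at −0.93 (SE 0.33) in the authors' deposited table. In KO young relative to WT aged aorta 1 was called, or 3.57%, namely Cd163 at −0.48 (SE 0.13) in the authors' deposited table. The C1q genes were called in neither. Endothelial markers gave 4 of 11 in KO young against WT aged, 1 higher and 3 lower in KO young, and 1 of 11 in KO ageing. These counts are 36.4% and 9.09% of the list, beside 7.78% and 14.4% of all tested genes. Of 16 fibroblast markers 4 were called in KO ageing, all lower, and 4 in KO young against WT aged, all higher in KO young. Each count is 25% of the list, beside 14.4% and 7.78% of all tested genes. Those higher in KO young, Mfap5, Col1a2, Dpt and Serpinf1, were also lower with age in WT aorta. Both comparisons use the same WT aged libraries, so these directions are not independent of each other. Genotype and age cannot be told apart in KO young against WT aged. Differences between comparisons in these counts, and the part of these cells in the complement values, were not tested.

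**Figure D4:**
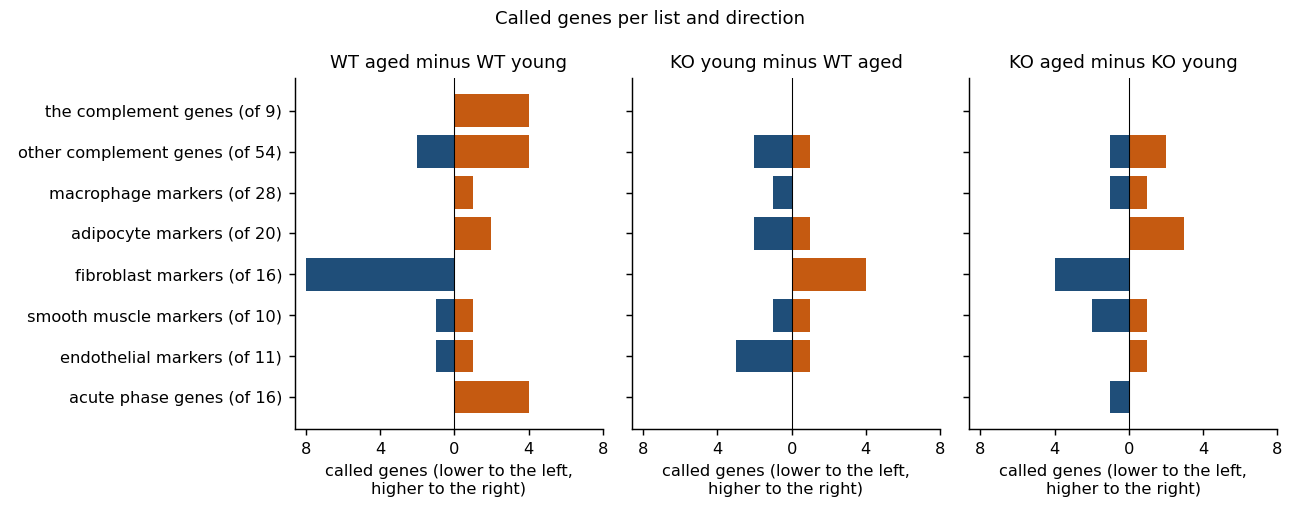
Number of called genes per list, higher to the right (orange) and lower to the left (blue), in each comparison; list sizes stand beside the names. The 9 complement genes have 4 called, all higher, in WT ageing and 0 in the others, while fibroblast markers have 8 lower, 4 higher and 4 lower.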

How the data were processed

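RNA of 20 aorta libraries in 4 groups was sequenced, with 5 libraries per group and 2 mice per library. STAR 2.7.11b, Subread 2.0.8 (with featureCounts), DESeq2 1.42.1 and MultiQC 1.25.1 are listed, beside the build GRCm39, per the submitters' processing notes, which assign them no roles here. Per the labels' protocols, the library kit was stranded and low-input.

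Per the file headers, the authors deposited for each called gene its mean normalized count (a signal averaged over the libraries of a comparison), log2 fold change, SE, and raw and adjusted p-value. The number of genes tested was inferred from the gene with the smallest p, by dividing its adjusted by its raw p. No unit was recomputed and no model refitted. Each table was checked to hold all called genes: the last row had the rank of its own length (1728, 1141 and 2083). The sign of each table was read from the group means of the group that 2 tables share; the reading used left median deviations of 0.03 and 0.04 (log2), and the other readings 0.115 or more. Group means assume equal group sizes and carry the shrinkage of the fold changes. The planned test of the difference of ageing effects had no member to be read for. One complement gene is not reported here and stands in no list count.

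The 9 genes, 12 gene lists and named genes (all complement genes called, and up to 4 called genes per list and table by adjusted p) were chosen with earlier results of these data known; motifs were chosen after the windows were seen. A rule naming genes nearest to a member called in all 3 tables named none. Adig and Agpat2, Slc24a4 and the called neighbours of C4b were named outside these rules. Sequences are from RefSeq and GENCODE M21, both GRCm38, a build other than that of the files, so no position of the files is given. Alternatives were a stricter threshold, Bonferroni, minimum fold or mean, centring and leaving genes out. Scripts ran in Python 3.11.15 with SciPy 1.17.1, pandas 2.3.3, matplotlib 3.10.9 and NumPy 2.4.6.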

Additional observations from a re-analysis of the deposited data

How the results depend on the processing

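In WT ageing, the 4 called members became 2 (C4b and C3) at an adjusted p under 0.01, 1 (C4b) under Bonferroni correction and 1 (C4b) where the log2 fold change had to reach 1 in size. They were 3 or 4 with a minimum fold change of 0.5, a minimum mean of 50 or 200, centring on the median of called genes (−0.21), or without Cfd. Without C4b, Cfb and C2, whose transcripts share words with other genes, 2 of 6 were called (added after the data were seen). All stayed higher under each of these, and the 0 members called in both other comparisons stayed 0. The 6 other complement genes called in WT ageing became 1 (Csmd1) at an adjusted p under 0.01 and 2 at a minimum fold change of 0.5. The 3 in KO young against WT aged became 1 at that minimum. The 3 in KO ageing became 1 at an adjusted p under 0.01 and 1 at the minimum fold change. These losses follow from the stricter thresholds. Of 16 single complement values, centring turned none, but in WT ageing it brought Thbd to 0 and Colec12 to −0.01, and raised Cd46 to 0.53 and Cfp to 0.52. It brought C1qbp to 0.12 and Cd93 to −0.43 in KO ageing, and Cd93 to 0.21 and C7 to −0.58 in KO young against WT aged. No paired analysis was possible because the tables carry no values of single libraries; leaving out replicates was not run for the same reason. Depth is unknown, so what it limits, among the 5 members with no value in particular, could not be assessed.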
